A study of Homo sapiens with 7 samples.

Results

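The squamous lineage transcription factors and desmosome genes were 10 genes, TP63, SOX2, KLF5, NOTCH1, JAG1, TRIM29, PKP1, DSG2, DSG3 and DSC3, out of 19059 genes that could be named on the microarrays. They were picked by symbol and not by a rule on measured values, though with earlier results of these data known. They were read by 13 of 42405 gene probes. Total RNA was taken from the lung squamous cell carcinoma line NCI-H520 and hybridised to 7 single-colour Agilent arrays. All cells received 6 µg of pLKO.1 plasmid with cationic liposomes, were put under puromycin at 6 µg/mL after 12 h and were harvested at 72 h. The plasmid was an empty vector, a non-target shRNA without homology to known genes, or an shRNA against PARN, CNOT6, CNOT6L, CNOT7 or NOC (nocturnin, gene NOCT), which are deadenylases, enzymes that shorten the poly(A) tails of mRNAs. Each of the 7 groups had 1 array of 1 cell line, so no comparison of a single shRNA has a replicate behind it.

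In stratified epithelia and in squamous tumours, p63 (TP63) and SOX2 are the transcription factors that hold cells in the squamous lineage, and KLF5 works with them in basal cells. NOTCH1 is a receptor and JAG1 one of its ligands. Binding of the ligand releases the intracellular part of the receptor, which joins the DNA-binding protein RBPJ and switches on HES and HEY repressor genes, and in squamous epithelium this signal goes with differentiation. Desmosomes are the junctions that rivet neighbouring epithelial cells together. Desmogleins (DSG2, DSG3) and desmocollins (DSC3) are their cadherins across the membrane, and plakophilin 1 (PKP1) is a plaque protein that links the cadherins to desmoplakin and keratins. TRIM29 is a tripartite-motif protein abundant in squamous and basal cells.

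Levels are log2 processed signals minus the 75th percentile of the array, so that 0 is the 75th percentile, and the level of one probe cannot be set against that of another. A probe counted as above background where the scanner software had flagged 50% or more of its spots as such, and 79.6% of the gene probes met this on all arrays. The share above background ran from 82.0% to 91.4% per array, and the 75th percentile from 1366 to 3986 intensity units, lowest on the CNOT6 shRNA array. All arrays lay on 1 slide. Its row 1 held the empty vector, non-target, PARN and CNOT6 shRNA arrays, its row 2 held the CNOT6L, CNOT7 and NOC shRNA arrays, and the NOC image was extracted on another day. As row 2 had no control array, the slide row and the identity of those 3 shRNAs cannot be told apart. The targeted mRNA was lowest on the array of its own shRNA in all 5 cases, at 45.9% of the control mean for PARN, 54.2% for CNOT7, 63% for CNOT6L, 74.3% for NOC and 89.7% for CNOT6. For NOC the difference from the control mean, -0.43, was about as large as the 0.41 between the controls, and for CNOT6 it was -0.16 with the controls 0.10 apart. Per the labels the CNOT6L shRNA carries the target accession of the NOC shRNA, so its sequence is uncertain. In such bulk samples, fewer cells of a kind and less RNA per cell cannot be told apart.

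Of the 10 genes, 8 were above background on all 7 arrays. TP63 was so on 2 arrays and DSG3 on none. NCI-H520 is described as a squamous cell carcinoma line, and 22 squamous and basal cell markers were looked up in it. Of these, 17 (77.3%) were above background on all arrays, SOX2, KRT6A, KRT13, KRT15 and SPRR3 among them. That share is near the 79.6% of all gene probes and does not by itself mark the cells as squamous. The exceptions were 5 genes, which included the basal keratins KRT5 (above background on 4 arrays) and KRT14 (on 1 array), TP63 (on 2), CLCA2 (on 2) and LY6D (on 0). The defining basal markers p63, KRT5 and KRT14 were thus at or near the limit of detection on most arrays, in contrast to SOX2. KRT6A was the one marker of this list called for an shRNA, higher upon CNOT6L silencing by 1.07 and 1.14 over the controls, where 0.236% of all probes were called higher. It was also above both controls on the other row 2 arrays, reading -0.78, -1.40 and -0.90 with CNOT6L, CNOT7 and NOC shRNA against -2.38 to -1.84 in row 1.

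**Figure D1:**
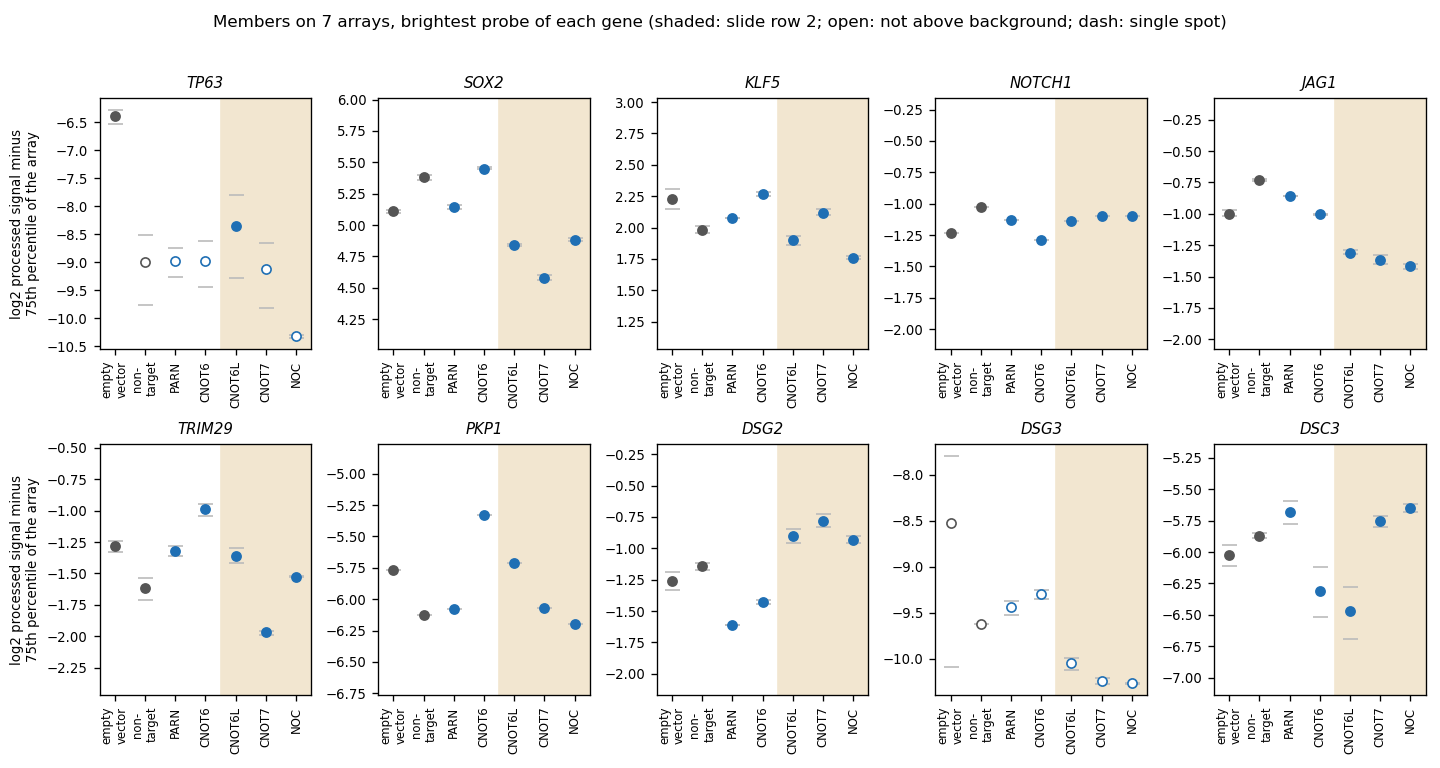
Level of each of the 10 genes on the 7 arrays (y axis, log2 processed signal minus the 75th percentile of the array, brightest probe per gene, own scale in each panel). Filled points are above background, open points are not, grey dashes are single spots, grey points are the control arrays and the shaded area is slide row 2. SOX2, JAG1 and DSG2 separate the slide rows, and TP63 stands above background on the empty vector array (-6.40) and the CNOT6L shRNA array (-8.36).

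TP63 was read by 1 probe printed on 2 spots (A_24_P273756). Its level was -6.40 with the empty vector, -9.00 with the non-target shRNA, -8.98 with PARN shRNA, -8.98 with CNOT6 shRNA, -8.36 with CNOT6L shRNA, -9.12 with CNOT7 shRNA and -10.32 with NOC shRNA. Only the empty vector and CNOT6L shRNA values were above background. The empty vector spots lay close together, at -6.54 and -6.28, but the CNOT6L shRNA spots lay at -7.80 and -9.28, and the median SD between spots over the 7 arrays was 0.58. The empty vector array was thus the high one and every other array lay at or near background, both shRNA and control. Against the non-target array, set to its detection limit, TP63 on the empty vector array was at least 3.19-fold higher, a call that was lost under quantile normalization and under normexp background correction. It was the only one of the 10 genes called at 2-fold between the control arrays. That is 1 gene beside 15.0% of all probes called between those 2 arrays in either direction, 14.4% higher and 0.679% lower.

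SOX2 was bright and even between spots (probe A_23_P401055, median spot SD 0.02, no saturated spot). It lay at 5.11 with the empty vector, 5.38 with the non-target shRNA, 5.14 with PARN shRNA and 5.45 with CNOT6 shRNA, and at 4.84 with CNOT6L shRNA, 4.58 with CNOT7 shRNA and 4.88 with NOC shRNA. The 3 arrays of row 2 were all below the 4 arrays of row 1. The widest difference of an shRNA from the controls was that of CNOT7 shRNA, -0.53 from the empty vector and -0.80 from the non-target array.

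KLF5 (A_23_P53891) moved less. It read 2.23 with the empty vector, 1.98 with the non-target shRNA, 2.08 with PARN shRNA, 2.27 with CNOT6 shRNA, 1.90 with CNOT6L shRNA, 2.12 with CNOT7 shRNA and 1.76 with NOC shRNA. NOC shRNA was the lowest, at -0.47 and -0.22 from the controls, and the rows overlapped.

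NOTCH1 had 2 probes that differed in how much they varied. The brighter one, A_33_P3370424, on 1 spot, read -1.23 with the empty vector, -1.03 with the non-target shRNA, -1.13 with PARN shRNA, -1.29 with CNOT6 shRNA, -1.14 with CNOT6L shRNA and -1.10 with both CNOT7 and NOC shRNA, a range of 0.26. The other, A_23_P60387, on 10 spots with a median spot SD of 0.06, read -3.39, -2.86, -3.05, -4.05, -3.01, -3.09 and -2.74 in the same order, a range of 1.31. Both probes were lowest with CNOT6 shRNA. On the dimmer probe that array differed from the controls by -0.66 and -1.19, on the brighter one by -0.06 and -0.26.

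JAG1, the ligand, followed the slide rows (A_23_P210763, median spot SD 0.02). It read -1.0 with the empty vector, -0.73 with the non-target shRNA, -0.86 with PARN shRNA and -1.0 with CNOT6 shRNA, against -1.31 with CNOT6L shRNA, -1.37 with CNOT7 shRNA and -1.42 with NOC shRNA. The ranges of the rows did not meet. The largest difference from the controls was that of NOC shRNA, -0.42 and -0.69.

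By the brightest probe of each gene, TRIM29 had the widest range of the 8 genes above background on all arrays, 0.98 on the log2 scale (A_23_P203267). It read -1.28 with the empty vector, -1.62 with the non-target shRNA, -1.32 with PARN shRNA, -0.99 with CNOT6 shRNA, -1.36 with CNOT6L shRNA, -1.97 with CNOT7 shRNA and -1.53 with NOC shRNA. The extremes were CNOT6 shRNA, the highest, and CNOT7 shRNA, the lowest, one in each slide row. CNOT7 shRNA differed by -0.69 and -0.35 from the controls and by -0.53 from the mean of its row mates. Over the 7 arrays, the genes most like TRIM29 among 3197 that spanned at least 1 log2 unit were PCGEM1 (Pearson's r 0.962), FOXS1 (0.957), OR2T5 (0.931), CLDN14 (0.929) and CIITA (0.914), each with its highest value on the CNOT6 and its lowest on the CNOT7 shRNA array. These coefficients rest on 7 points that share a slide and are a description only. The CNOT6 and CNOT7 shRNA arrays also had the lowest and the highest 75th percentile, 1366 and 3986 intensity units. The part of array signal in this likeness was not tested.

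Among the desmosome genes, PKP1 was dim but above background by both of its probes. The brighter, A_23_P23296, read -5.77 with the empty vector, -6.13 with the non-target shRNA, -6.08 with PARN shRNA, -5.33 with CNOT6 shRNA, -5.71 with CNOT6L shRNA, -6.07 with CNOT7 shRNA and -6.20 with NOC shRNA. CNOT6 shRNA was the highest on both probes, at 0.44 and 0.80 above the controls on A_23_P23296 and 0.40 and 0.59 on A_33_P3393971. That array had the lowest 75th percentile and the highest lower limit of levels above background, -7.74. The median of all probes on it was 0.12 above the control mean.

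DSG2, the desmoglein made in simple as well as stratified epithelia, was above background on all arrays with close spots (A_23_P141730, median spot SD 0.04). It read -1.26 with the empty vector, -1.14 with the non-target shRNA, -1.61 with PARN shRNA and -1.43 with CNOT6 shRNA, and -0.90 with CNOT6L shRNA, -0.78 with CNOT7 shRNA and -0.93 with NOC shRNA. Here the row 2 arrays were the high ones, in the opposite direction to SOX2 and JAG1. CNOT7 shRNA was 0.48 and 0.37 above the controls and PARN shRNA differed from them by -0.35 and -0.46.

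DSG3, the desmoglein of stratified squamous epithelium, gave no value above background on any array, with levels from -10.26 to -8.52, and no fold is given for it. DSC3 had 2 probes. A_24_P344416 was above background on 0 arrays, while A_33_P3266898 was above it on all 7 and read -6.02 with the empty vector, -5.87 with the non-target shRNA, -5.68 with PARN shRNA, -6.31 with CNOT6 shRNA, -6.47 with CNOT6L shRNA, -5.75 with CNOT7 shRNA and -5.65 with NOC shRNA. CNOT6L shRNA was the lowest, -0.77 from the mean of its row mates, with spots at -6.28 and -6.69.

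To ask whether silencing a deadenylase moved these genes, each shRNA array was set against both control arrays, and a gene was called when it was at least 2-fold higher or lower than each of them. None of the 10 genes was called for any of the 5 shRNAs, that is 0 of 50 pairs of a gene and an shRNA. Over all probes the same rule called 0.652% upon PARN silencing, 0.590% upon CNOT6 silencing, 0.961% upon CNOT6L silencing, 1.30% upon CNOT7 silencing and 1.74% upon NOC silencing, so that a count of 0 in 10 is near the background. The median difference of the 10 genes from the control mean was -0.06 with PARN shRNA, -0.15 with CNOT6 shRNA, -0.31 with CNOT6L shRNA, -0.31 with CNOT7 shRNA and -0.30 with NOC shRNA, beside -0.01, 0.12, -0.04, -0.11 and -0.10 over all probes. These medians include TP63 and DSG3, whose values at background carry little information. Against its row mates alone, none of the 10 genes was called for CNOT6L, CNOT7 or NOC shRNA, where 1.05%, 0.248% and 0.382% of all probes were. Measured against the empty vector array alone, TP63 would be called lower for all 5 shRNAs, and against the non-target array alone it was called for none.

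**Figure D2:**
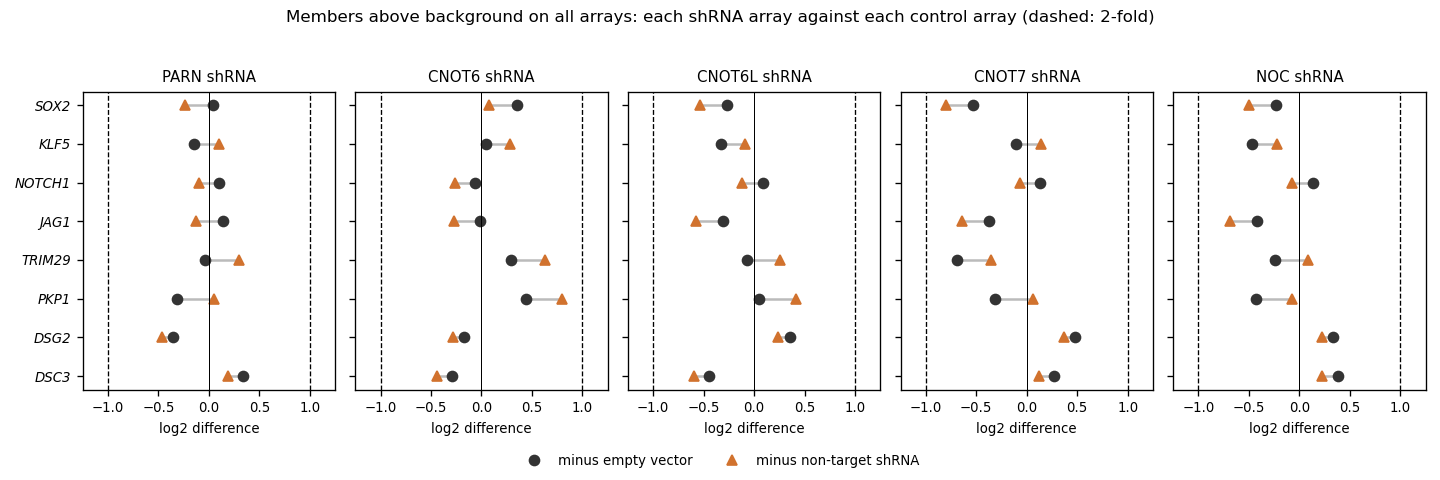
Log2 difference of each shRNA array from the empty vector array (circles) and from the non-target array (triangles) for the 8 genes above background on all arrays, with the 2-fold limits dashed. No gene passes a limit against both controls, and the widest pairs are PKP1 with CNOT6 shRNA (0.44 and 0.80) and SOX2 with CNOT7 shRNA (-0.53 and -0.80).

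The 5 shRNA arrays were then compared with the 2 control arrays as groups by limma, whose spread is that between different plasmids. Of 38084 probes none had a Benjamini-Hochberg adjusted p under 0.05, a share of 0%, although 1429 had an unadjusted p under 0.05. DSG3 was too dim to be tested. The largest differences of the remaining 9 genes were -1.45 (SE 0.79) for TP63, -0.33 (SE 0.19) for JAG1 and -0.26 (SE 0.21) for SOX2, each with an adjusted p of 1 by limma. The value of TP63 was set by the controls, being -0.15 once the empty vector was left out and -2.75 once the non-target shRNA was. SOX2 had the opposite sign, 0.06 (SE 0.18), when only the row 1 arrays were used, and JAG1 was at -0.07 (SE 0.19) there.

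The row pattern of SOX2, JAG1 and DSG2 was tested as such after it had been seen. The arrays of a row carried different plasmids, so the spread in this fit is that between plasmids within a row. Its p-values, here and for the other gene lists, rest on no replicate of a row or of an shRNA. Slide row 2 was lower in SOX2 by limma, with a difference of -0.50 (SE 0.12, adjusted p = 0.035), which is 70.5% of the row 1 mean. JAG1 was lower by a like amount, -0.47 (SE 0.11, adjusted p = 0.035), or 72.4% of row 1. DSG2 had a difference of 0.49 (SE 0.13), or 140% of row 1, which missed the threshold with an adjusted p of 0.0529 by limma. The other 6 genes tested had differences from -0.93 (TP63, SE 0.79) to 0.05 (NOTCH1, SE 0.10) with adjusted p of 0.265 or more by limma. These 2 calls stand beside 6.87% of 38084 probes called between the rows in either direction. The rows did not overlap in 4 of the 10 genes (SOX2, JAG1, DSG2 and DSG3, the last at background), beside 25.4% of all probes. Markers of several lineages differed between the same rows by limma. KRT6A (0.99, adjusted p = 0.0179) and TGM1 (0.79, adjusted p = 0.0176) were higher in row 2 and SPRR1A (-0.66, adjusted p = 0.0271, brighter probe) lower, with SOX2 4 of 20 squamous markers tested. The dimmer SPRR1A probe went the other way, with means of -5.83 in row 1 and -5.20 in row 2, and its rows overlapped. Of 14 adenocarcinoma markers LAMP3 was higher and FOXA2 lower, of 11 neuroendocrine markers NCAM1 and SCG2 were lower, of 13 mesenchymal ones TWIST1 was lower, and of 9 leukocyte markers 0 were called. The NCAM1 call was that of its brightest probe. On a dimmer one, above background on all arrays, the means were -5.95 in row 1 and -6.37 in row 2, and the rows overlapped. The part of these markers in the differences of SOX2 and JAG1 was not tested.

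The calls of SOX2 and JAG1 depended on single arrays. By limma, leaving out the PARN, CNOT6L, CNOT7 or NOC shRNA array gave SOX2 adjusted p-values of 0.0696, 0.115, 0.145 and 0.0888 and JAG1 values of 0.102, 0.121, 0.127 and 0.134. JAG1 was also lost without the empty vector array (adjusted p = 0.0599 by limma), and DSG2 was gained without the non-target array (0.0126). The differences themselves stayed between -0.56 and -0.41 for SOX2, between -0.50 and -0.41 for JAG1 and between 0.41 and 0.56 for DSG2. With both control arrays left out, the row 2 shRNA arrays differed from the PARN and CNOT6 shRNA arrays by -0.53 in SOX2 (adjusted p = 0.0439), -0.43 in JAG1 (adjusted p = 0.0449) and 0.65 in DSG2 (adjusted p = 0.0173), all by limma, in a fit that called 13.6% of all probes. Under quantile normalization SOX2 (0.00898) and DSG2 (0.0439) passed and JAG1 (0.0665) did not, by limma adjusted p. On the deposited log2 values neither SOX2 (0.112) nor JAG1 (0.0943) passed, nor did any other probe. Without scaling of the arrays, all probes together were shifted up by a median of 0.64 in row 2, and SOX2 and JAG1 stood at 0.22 and 0.25, below that shift. The part of the slide row itself in these differences was not tested.

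**Figure D3:**
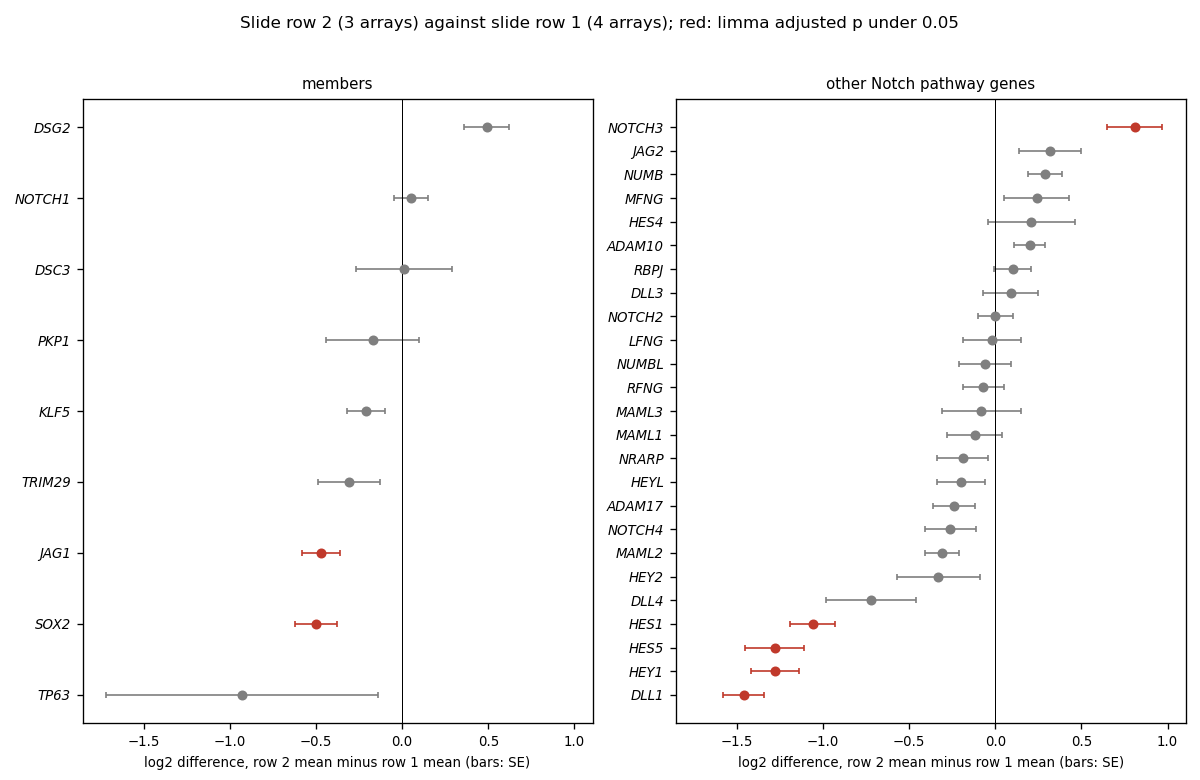
Difference between the mean of the 3 row 2 arrays and the mean of the 4 row 1 arrays on the log2 scale (x axis, bars are SE) for 9 of the 10 genes and for 25 other Notch pathway genes, with limma adjusted p under 0.05 in red. SOX2 and JAG1 lie to the left at -0.50 and -0.47, and DLL1, HEY1, HES5 and HES1 farther left, between -1.46 and -1.06.

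With JAG1 and NOTCH1 in view, 26 other genes of the Notch pathway were examined, 25 of them above background on all arrays. DLL1, another Notch ligand, was the one called lower against both controls for all of CNOT6L, CNOT7 and NOC shRNA. Its level was 1.84 with the empty vector, 2.25 with the non-target shRNA, 2.21 with PARN shRNA and 2.21 with CNOT6 shRNA, and 0.55, 0.65 and 0.80 for CNOT6L, CNOT7 and NOC shRNA. The repressor genes HES5 and HEY1, which Notch switches on, were called lower for CNOT6L and CNOT7 shRNA. HES5 stood at -1.65, -1.08, -1.36 and -1.14 on the row 1 arrays (empty vector, non-target, PARN and CNOT6 shRNA) and at -2.75, -2.69 and -2.34 on the row 2 arrays (CNOT6L, CNOT7 and NOC shRNA). HEY1 stood in the same order at -0.17, 0.25, 0.11 and 0.24 and at -1.21, -1.35 and -0.96. In both genes every row 2 array lay well under every row 1 array, and NOC shRNA, the least low of the 3, missed the 2-fold rule against the empty vector with -0.69 for HES5 and -0.79 for HEY1. In all, the list had 3 genes called lower and 0 higher upon CNOT6L silencing, where 0.725% of all probes were called lower. The counts were 3 and 0 upon CNOT7 silencing (0.977% of probes lower), 1 and 0 upon NOC silencing (1.28% lower), and 0 and 0 upon PARN or CNOT6 silencing. None was called against row mates alone. Of the controls, the empty vector array was called higher in DLL4 and lower in HES4, beside 14.4% and 0.679% of all probes.

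Between the slide rows, limma called 4 of the 25 Notch genes tested lower and 1 higher in row 2, beside 4.45% and 2.41% of all probes. The lower ones were DLL1 at -1.46 (SE 0.12, adjusted p = 0.000598), HEY1 at -1.28 (SE 0.14, adjusted p = 0.00275), HES1 at -1.06 (SE 0.13, adjusted p = 0.00496) and HES5 at -1.28 (SE 0.17, adjusted p = 0.00552). They stood at 36.3%, 41.2%, 47.9% and 41.1% of the row 1 mean. Each of the 4 remained past the threshold of limma whichever array was left out, with adjusted p-values of at most 0.0425. Without scaling of the arrays none of the 4 passed, with differences of -0.74 for DLL1, -0.56 for HEY1 and for HES5 and -0.34 for HES1. On the deposited log2 values all 4 missed the threshold with an adjusted p of 0.0574 by limma, and DLL1 stood at -1.41 there. The higher one was the receptor NOTCH3 at 0.81 (SE 0.16, adjusted p = 0.0201 by limma), which was lost without the PARN (0.0539), CNOT6L (0.107), CNOT7 (0.0747) or NOC (0.0781) shRNA array. Without the non-target array the list had 9 genes called, in a fit that called 20.6% of all probes. Not all Notch genes moved, since NOTCH2 (0.00, SE 0.10, on its brighter probe), RBPJ (0.10, SE 0.11), LFNG (-0.02, SE 0.17) and the target NRARP (-0.19, SE 0.15) did not pass, and the median over the 25 was -0.08, that of all probes. The dimmer NOTCH2 probe differed from the brighter one, lying between -0.44 and -0.35 from either control on the row 2 arrays. Among the HES and HEY genes, HES4 (0.21, SE 0.25), HEY2 (-0.33, SE 0.24) and HEYL (-0.20, SE 0.14) did not pass either. Their rows overlapped, and HES4 went the other way. HES1, NOTCH3, DLL4 and the Notch genes named as not passing were picked after their values were seen.

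**Figure D4:**
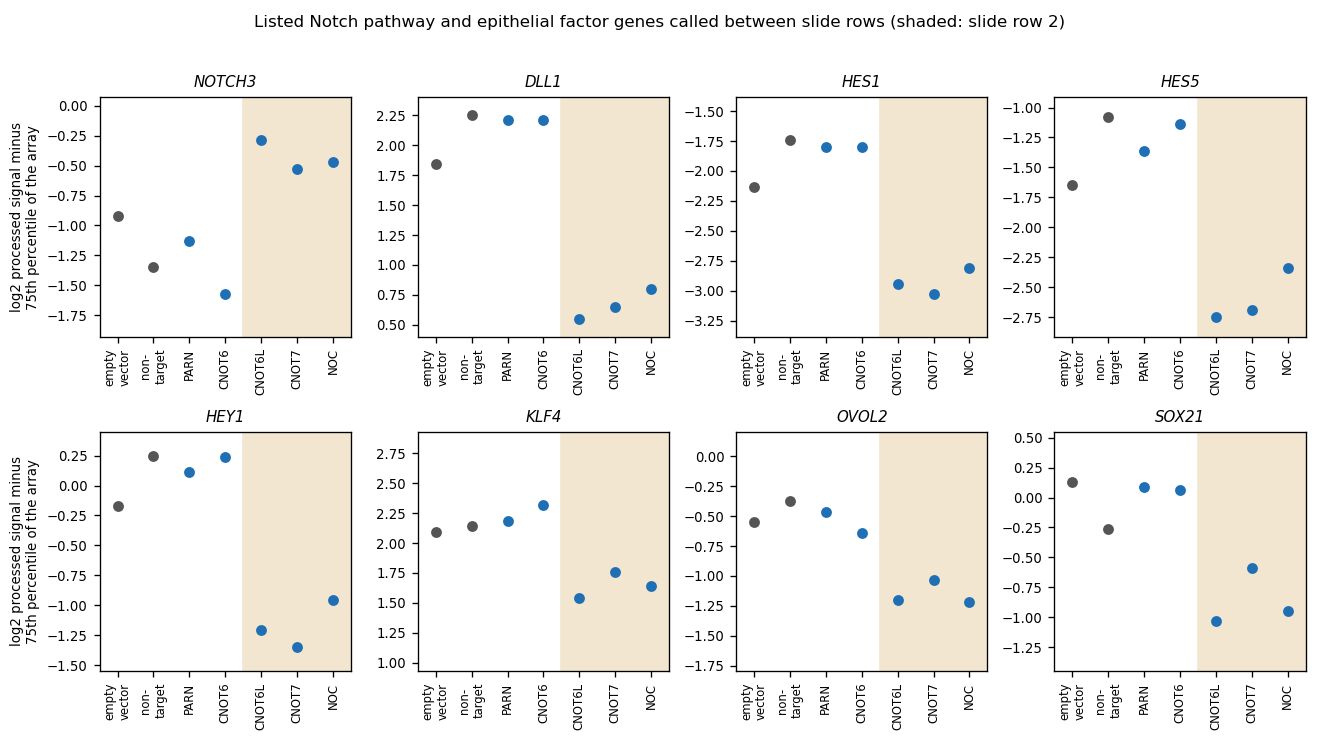
Level on each array (y axis, log2 processed signal minus the 75th percentile, own scale per panel) of the Notch pathway genes NOTCH3, DLL1, HES1, HES5 and HEY1 and of the epithelial transcription factors KLF4, OVOL2 and SOX21. Grey points are the control arrays and the shaded area is slide row 2, in which DLL1 reads 0.55 to 0.80 against 1.84 to 2.25 in row 1.

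The upstream sequences of the 10 genes and of the 26 other Notch genes were looked at for a core that RBPJ binds, TGGGAA. Either strand counted (TTCCCA on the other). Windows were the 250 bases before the annotated start in RefSeq, build GRCh38.p14. Windows were at hand for 9 of the 10 genes and 21 of the 26 other Notch genes, but not for TRIM29, HEY1, DLL1, DLL3, MFNG and DTX1. Of all 35116 windows 20.8% held the core. It was in 0 of the 10 windows of the 9 genes and in 7 of the 27 windows of the Notch list (25.9%). Besides HES1 and HES5, a window of RBPJ and of HEYL held 2 cores each, and a window of LFNG, HES4 and HEY2 held 1 each. RBPJ, HEYL, LFNG, HES4 and HEY2 were not called between the rows, while HES1 and HES5 were called lower. DLL1 and HEY1, also called lower, had no window. Whether holding a core goes with a call was not tested. HES1 and HES5 are shown because they are the called genes with 2 cores each, in capitals, and SOX2 and JAG1 because they are the called genes of the squamous set. The windows were chr3:194135898-194136147 on the plus strand for HES1, chr1:2530264-2530513 on the minus strand for HES5, chr3:181711675-181711924 on the plus strand for SOX2 and chr20:10674000-10674249 on the minus strand for JAG1, each written 5′ to 3′.
HES1: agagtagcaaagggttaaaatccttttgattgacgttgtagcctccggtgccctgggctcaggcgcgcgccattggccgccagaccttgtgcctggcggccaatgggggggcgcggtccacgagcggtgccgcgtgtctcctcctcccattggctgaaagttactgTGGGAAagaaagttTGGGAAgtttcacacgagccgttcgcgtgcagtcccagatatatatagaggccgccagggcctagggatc
HES5: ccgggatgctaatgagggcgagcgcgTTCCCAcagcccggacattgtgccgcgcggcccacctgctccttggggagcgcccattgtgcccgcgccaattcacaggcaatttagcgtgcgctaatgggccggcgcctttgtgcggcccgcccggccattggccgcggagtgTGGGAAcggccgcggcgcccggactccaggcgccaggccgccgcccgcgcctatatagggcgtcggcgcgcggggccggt
SOX2: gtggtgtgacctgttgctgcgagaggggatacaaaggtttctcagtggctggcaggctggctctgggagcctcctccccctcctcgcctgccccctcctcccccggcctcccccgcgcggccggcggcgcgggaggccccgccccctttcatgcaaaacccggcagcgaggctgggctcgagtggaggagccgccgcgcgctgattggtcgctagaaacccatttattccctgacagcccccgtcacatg
JAG1: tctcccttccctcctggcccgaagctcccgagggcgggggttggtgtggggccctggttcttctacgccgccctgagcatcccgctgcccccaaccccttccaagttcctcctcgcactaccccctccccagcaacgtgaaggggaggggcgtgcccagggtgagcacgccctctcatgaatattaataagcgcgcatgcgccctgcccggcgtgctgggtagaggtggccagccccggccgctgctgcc
The HES1 cores began 84 and 70 bases before the start and lay close together on 1 strand. Those of HES5 began 224 and 80 bases before the start and lay on opposite strands. A match is only a run of letters, and its absence from a window says nothing of RBPJ elsewhere.

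Of 13 other desmosome and cornified-junction proteins 10 were above background on all arrays, desmoplakin (DSP), plakoglobin (JUP) and PERP among them, and none was called for any shRNA or between the slide rows. Of those 10, the 3 with the widest range were PERP, from 3.76 on the non-target to 4.77 on the CNOT6 shRNA array, DSC2, from -3.57 with CNOT6 shRNA to -2.62 with NOC shRNA, and periplakin (PPL), from -2.18 with CNOT6 shRNA to -1.23 on the non-target array. The row difference of DSC2, 0.50 (SE 0.19), was near that of DSG2 but had an adjusted p of 0.149 by limma. PKP2 was also higher in row 2 (0.43, SE 0.14) and PKP3 lower (-0.27, SE 0.08), with adjusted p of 0.0917 and 0.0794 by limma. The desmosome genes thus had no shared direction between the rows. Between the control arrays, DSC1 was called higher on the empty vector array, as were 14.4% of all probes. It was above background on 2 arrays only, and read -6.79 with the empty vector and -8.69 with the non-target shRNA.

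Among 19 other stratified epithelial transcription factors, all above background on all arrays, none was called for any shRNA against both controls. The widest ranges were those of GRHL2 (1.45), EHF (1.44) and BARX2 (1.26), and these 3 were also the ones called higher on the empty vector than on the non-target array, as were 14.4% of all probes. Between the rows limma called 3 of the 19 lower in row 2 and 0 higher, beside 4.45% and 2.41% of all probes, KLF4 at -0.54 (SE 0.09, adjusted p = 0.0142), OVOL2 at -0.65 (SE 0.11, adjusted p = 0.0125) and SOX21 at -0.86 (SE 0.14, adjusted p = 0.0117). Each was lost without the CNOT6L shRNA array (adjusted p of 0.0849, 0.0774 and 0.0711 by limma) and without the NOC shRNA array (0.0675, 0.0669 and 0.0619). On the deposited log2 values none of the 3 passed. KLF4 and OVOL2 turned to 0.18 and 0.07 without scaling, below the median shift of all probes. The median row difference of these factors was -0.33, beside -0.08 over all probes.

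Of 18 genes widely described as p63 targets, 13 were above background on all arrays. CSTA, the cysteine protease inhibitor cystatin A of cornifying cells, was the 1 gene called for an shRNA, higher with NOC shRNA, where 0.465% of all probes were. It read -5.94 there, against -7.28 with the empty vector, -8.79 with the non-target shRNA and -9.06 to -8.15 on the other 4 arrays, being above background on 3 arrays in all. The call rested on 1 spot, since the spots of the NOC shRNA array lay at -8.96 and -5.04, and their mean exceeded the empty vector by 1.34 and the non-target array by at least 2.13. No gene of the list was called lower for any shRNA, and none was called between the rows.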

How the data were processed

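The titles gave the groups. The deposited scanner output was written by Agilent Feature Extraction 10.7.3.1 per the file headers, with 1 processed intensity for each spot. The deposited series table, used as an alternative, holds log2 values in which each probe is centred on its median over the arrays and each array is shifted, by an amount not given in the sources used here. Outlier and control spots were left out, and spots of 1 probe averaged. Levels were log2 processed signals, less the log2 of the array's own 75th percentile over gene spots. A gene was represented by its brightest probe. RefSeq named 24823 probes. The number of arrays limits the precision.

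Where the dimmer side was not above background, it was raised to the lowest level above background on that array if it lay under it, so that such folds are lower bounds. Probes above background on at least 2 arrays entered limma 3.58.1 (R 4.3.3), using lmFit and eBayes with trend, two-sided, with Benjamini-Hochberg adjustment at 0.05. Scripts were tested on simulated data. Other genes were named when called for an shRNA or, failing that, as the 3 of a list with the widest range, and for TRIM29 as the 5 most correlated genes. Markers called between rows, KLF4, OVOL2, SOX21, DSC1, PKP2, PKP3, COL17A1 and part of the Notch genes were named after their values were seen. The 10 genes and the lists were chosen with earlier results of these data known, and the comparison of slide rows was added after the rows were seen. Alternatives covered scaling, background correction, the series table, outlier spots, probe choice, thresholds, filters, single controls, the slide row and left-out arrays. Genes and windows without a RefSeq entry were not analysed here.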

Additional observations from a re-analysis of the deposited data

How the results depend on the processing

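No paired analysis was possible because each group had 1 array and all arrays carry the same replicate number. For single shRNAs, the count of the 10 genes called stayed at 0 under the alternatives tried, except that the empty vector array alone gave 1 (TP63, lower) for each shRNA and that no scaling gave 4 for CNOT6 shRNA (NOTCH1, JAG1, DSG2 and DSC3, lower), the array with the lowest signal. DSC3 was called lower for CNOT6L shRNA against its row mates at 1.5-fold, 1 gene. Between the controls the count went from 1 to 0 with quantile normalization or normexp and to 2 with outlier spots kept (TP63 higher, DSG3 lower). In the comparison of shRNA with control arrays it was 0 throughout, leaving out single arrays included (0 to 0). SOX2 turned from -0.26 to 0.06 both with slide row as a term and within slide row 1. Over all probes, that comparison gave 48 higher and 15 lower without the empty vector array.

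Alternatives for the slide rows and for the Notch list were chosen after seeing the data. Between rows, the count of the 10 genes went from 2 to 1 without scaling (DSG2), 4 with normexp (TP63, SOX2, JAG1 and DSG2) and 0 with the deposited log2 values, and ranged from 0 to 3 with single arrays left out. Without scaling SOX2 read 0.22, JAG1 0.25, KLF4 0.18 and OVOL2 0.07. Over all probes the split was 919 higher and 1696 lower, against 1360 and 1402 with quantile normalization, 5169 and 66 without scaling, 1536 and 4237 with normexp and 0 and 0 with the deposited log2 values, where 8935 had an unadjusted p under 0.05. The Notch count between rows, 5, was 2 without scaling, 0 with the deposited log2 values and 4 to 9 with single arrays left out. With no scaling the Notch counts against both controls were 7 for CNOT6, 1 for CNOT6L, 0 for CNOT7 and 0 for NOC shRNA. Quantile normalization gave 1 for CNOT6L shRNA and the deposited log2 values gave 0 for NOC shRNA. At 1.5-fold they were 1 for CNOT6, 5 for CNOT6L and 4 for NOC shRNA, and at 4-fold 0 for CNOT6L, CNOT7 and NOC shRNA. The empty vector alone gave 5 for CNOT7 and 2 for NOC shRNA. The non-target array alone gave 1 for PARN, 1 for CNOT6, 5 for CNOT6L and 4 for NOC shRNA. Limma with 1 shRNA array, whose spread was taken to be that of the controls, gave 0 for CNOT6L, CNOT7 and NOC shRNA. The cause of these changes was not tested. Low signal limits TP63, DSG3, DSC3, PKP1 and CSTA, whose values lie near background.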

Other observations

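Markers of other lineages gave these values, where 79.6% of all gene probes were above background on all 7 arrays. Of 12 neuroendocrine markers 11 were so, the neuronal hydrolase UCHL1 reading 5.62 to 6.04 and the granin CHGB 1.17 to 2.80, lowest with PARN shRNA. Dopa decarboxylase (DDC) was called higher upon CNOT6 silencing, where 0.590% of all probes were called in either direction. It was dim, at -5.06 there and -6.69 to -5.83 on the other arrays. The CNOT6 shRNA array had the lowest 75th percentile, 1366 intensity units. Secretogranin 2 (SCG2) was called lower upon CNOT6L silencing, where 0.725% were called lower, and it was low on all row 2 arrays (-3.99, -3.64 and -3.44 against -2.94 to -2.62), with a row difference of -0.92 (adjusted p = 0.0159 by limma). Between the rows, NCAM1 stood at -0.79 on its brightest probe, TWIST1 at -0.62, FOXA2 at -0.51 and LAMP3 at 0.58. Their adjusted p-values were 0.0301, 0.0255, 0.0108 and 0.0198 by limma. Against both controls, no other of the neuroendocrine, lung adenocarcinoma, mesenchymal or leukocyte markers was called for an shRNA. Of 15 lung adenocarcinoma and alveolar markers with a probe 12 were above background throughout, and 12 of 15 mesenchymal ones. The lung lineage factors NKX2-1 and FOXA2 read -0.74 to -0.47 and 2.98 to 3.66, and the intermediate filament vimentin (VIM) 4.07 to 4.84. Of 9 leukocyte markers with a probe, 9 were above background on all arrays as well, although the sample was a cell line. The summed linear signal of the brightest probes of the 10 genes was 41 to 47.5 times the 75th percentile on the control arrays and 30 to 50.5 times on the shRNA arrays. The SOX2 probe weighs most in this sum of probe signals, which does not compare mRNA amounts between genes. The part of other lineages in any result was not tested.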
